A study of Mus musculus with 6 samples.

Results

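The brush border digestive hydrolases are the enzymes that absorptive enterocytes carry on their apical surface to finish the digestion of sugars, peptides and phosphate esters. The group was chosen by gene name and comprised 10 genes, Lct, Sis, Mgam, Treh, Anpep, Dpp4, Enpep, Mep1a, Mep1b and Alpi. All 10 were present among the 28752 genes of the deposited table, and all 10 were among the 18348 genes that passed the filter on low counts and were tested.

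RNA sequencing was performed on 6 samples of mouse intestinal crypt stem cell cultures, 3 with vector and 3 overexpressing the circular RNA circEZH2_005, to ask which transcripts differ when the circle is raised in cells exposed to hypoxia/reoxygenation (H/R). The study's methods describe cultures raised as organoids in IntestiCult medium. Organoids are miniature epithelia in which stem cells and their differentiated progeny occur together. In those methods the founding cells were stem cells of Lgr5-GFP mice, in which GFP marks expression of the stem cell receptor Lgr5. The methods also state that GFP-positive cells were sorted by flow cytometry before culture, a step that would remove leukocytes. Whether the sequenced material passed such a sort is not given in the labels. The circEZH2_005 adenovirus was given 72 h before H/R, and the hypoxic step of H/R lasted 4 h in 5% CO2, 2% O2 and 93% N2. All 6 samples were exposed to H/R, the vector samples carried the genotype label WT, and normoxic cultures were not analysed here. The labels give neither the age nor the sex of the mice, nor what the vector carried, and nothing ties a sample number to an animal, so the p-values below measure the spread between these samples, which may be technical. The libraries were made with oligo(dT) and were read per gene, so the circle itself had no value in the table and the overexpression could not be checked in it. Each sample held between 71506487 and 79919893 counts, and at this depth a floor of 3 counts corresponded to 0.0377 to 0.0419 CPM (counts scaled to the library total and TMM-normalized). Every hydrolase was far above this floor in every sample, with the lowest count, that of Mep1a in vector sample 2, at 1232.

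Disaccharidases such as lactase and sucrase-isomaltase are anchored in the microvillus membrane and split sugars that carriers then take up, whereas aminopeptidases, dipeptidyl peptidase and meprins trim peptides in the same place. Intestinal alkaline phosphatase removes phosphate groups from luminal substrates, including bacterial lipopolysaccharide. These enzymes are known as markers of enterocyte differentiation: crypt cells make little of them and cells moving up the villus make more, under the control of CDX, HNF1, HNF4 and GATA transcription factors. Lactase is typical of the suckling intestine, while sucrase-isomaltase and trehalase rise at weaning.

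The promoters of the 4 disaccharidases are shown because enzymes with related substrates had fold changes that ranged widely, and of the words searched only the TATA word separates Lct and Treh from Sis and Mgam. Windows of 250 bases before to 50 bases after the start were taken from RefSeq (GRCm38.p6) for the 9 of 10 genes that matched by symbol; Mep1b was not matched. A short word for each family of factors was searched on both strands, and capitals mark every match, the reverse complement included. The CDX word was TTTATN, in which N is any base. The HNF1 word was GTTAAT. The HNF4 word was CAAAGT. The GATA word was AGATAA. The TATA word was TATAAA. The run TTTATA is both a CDX word and the reverse complement of the TATA word, so these 2 counts overlap. The windows lie at chr1:128328269-128328568 (minus strand), chr3:72967814-72968113 (minus strand), chr6:40628581-40628880 (plus strand) and chr9:44672983-44673282 (plus strand), in the order Lct, Sis, Mgam, Treh.
Lct: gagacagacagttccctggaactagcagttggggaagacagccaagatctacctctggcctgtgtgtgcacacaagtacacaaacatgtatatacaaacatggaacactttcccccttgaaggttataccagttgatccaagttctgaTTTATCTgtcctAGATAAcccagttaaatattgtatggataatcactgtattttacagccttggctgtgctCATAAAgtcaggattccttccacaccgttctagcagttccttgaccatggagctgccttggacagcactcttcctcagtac
Treh: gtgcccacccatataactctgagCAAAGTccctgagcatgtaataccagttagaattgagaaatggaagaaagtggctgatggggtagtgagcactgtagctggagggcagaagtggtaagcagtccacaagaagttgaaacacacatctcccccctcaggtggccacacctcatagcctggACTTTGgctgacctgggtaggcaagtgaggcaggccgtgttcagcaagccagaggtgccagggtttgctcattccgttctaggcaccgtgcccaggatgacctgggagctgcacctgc
Sis: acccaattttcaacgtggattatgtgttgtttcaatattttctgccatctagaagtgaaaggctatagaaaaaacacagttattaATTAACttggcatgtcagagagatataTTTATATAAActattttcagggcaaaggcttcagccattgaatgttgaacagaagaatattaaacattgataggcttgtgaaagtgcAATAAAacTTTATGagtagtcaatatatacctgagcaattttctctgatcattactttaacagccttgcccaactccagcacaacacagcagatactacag
Mgam: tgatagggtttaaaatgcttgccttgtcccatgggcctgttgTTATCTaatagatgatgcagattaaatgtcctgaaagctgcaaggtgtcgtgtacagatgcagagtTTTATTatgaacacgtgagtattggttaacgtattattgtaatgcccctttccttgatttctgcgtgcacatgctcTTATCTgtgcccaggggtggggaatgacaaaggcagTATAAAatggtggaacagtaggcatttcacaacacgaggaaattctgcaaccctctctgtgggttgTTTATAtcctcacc

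In the Lct window, 2 CDX words and 2 GATA words were found, with the upstream CDX word sharing letters with a GATA word, and no TATA word. The Treh window held 2 HNF4 words and none of the other words. The Sis window held 4 CDX words, 1 HNF1 word and 2 TATA words, and the Mgam window 3 CDX words, 2 GATA words and 2 TATA words. Over the 9 windows the TATA word was present in 5 (Sis, Mgam, Dpp4, Enpep and Alpi) and absent from 4 (Lct, Treh, Anpep and Mep1a), against 13.6% of all 32851 promoter windows of this length. The 4 windows without it belong to the 4 genes with the largest log2 fold changes below. This division was noticed after the values were seen and was not tested. Counted from the start site, the first base of the TATA word lay at -30 and 37 in Mgam and at -33 in Alpi. It lay at -52 and -1 in Enpep, -138 and -134 in Sis and -227 in Dpp4. The Lct window held CATAAA at -31, a reverse-complement match of the CDX word. The division therefore concerns the exact letters anywhere in the window. The CDX word was in 7 of 9 windows against 39.9% of all windows, the HNF4 word in 3 against 14.4%, the GATA word in 3 against 11.2% and the HNF1 word in 1 against 7.1%. The Anpep window held none of the 5 words, and it covers the RefSeq start, which is not the most upstream Anpep start in GENCODE M21. A match is a description of letters, and its absence says only that these letters are not in the window.

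With circEZH2_005 against vector, the fold change was above 1 for 8 of the 10 hydrolases and below it for Sis and Enpep. The sign turned under other processing for Mgam, and when single samples were left out for Mgam, Enpep and Mep1b. None of the 10 passed the threshold of 0.05 on the edgeR p-value. This p-value came from the quasi-likelihood test and was adjusted over all genes after Benjamini and Hochberg. Mep1a and Lct had the largest values (2.92-fold and 2.73-fold the vector level, adjusted p = 0.0595 and 0.0573), followed by Treh (1.93-fold, adjusted p = 0.0865) and Anpep (1.83-fold, adjusted p = 0.107). Sis, Mgam, Enpep, Dpp4, Mep1b and Alpi lay between 0.818-fold and 1.3-fold. Of all genes tested, 2.69% were called higher and 0.986% lower at the adjusted threshold, where 0 of 10 hydrolases were called in either direction. At an unadjusted p under 0.05, 5 of 10 hydrolases were higher (Lct, Treh, Anpep, Mep1a and Alpi) and 0 lower, against 14.0% and 9.72% of all genes. DESeq2 called Lct, Treh, Anpep and Mep1a higher and no hydrolase lower, against 9.65% of the genes it gave an adjusted p, and edgeR called the same 4 when circEZH2_005 sample 1 was left out, against 2.91%. The median log2 fold change of the 10 hydrolases was 0.36, and that of all genes tested was 2.15e-05.

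**Figure D1:**
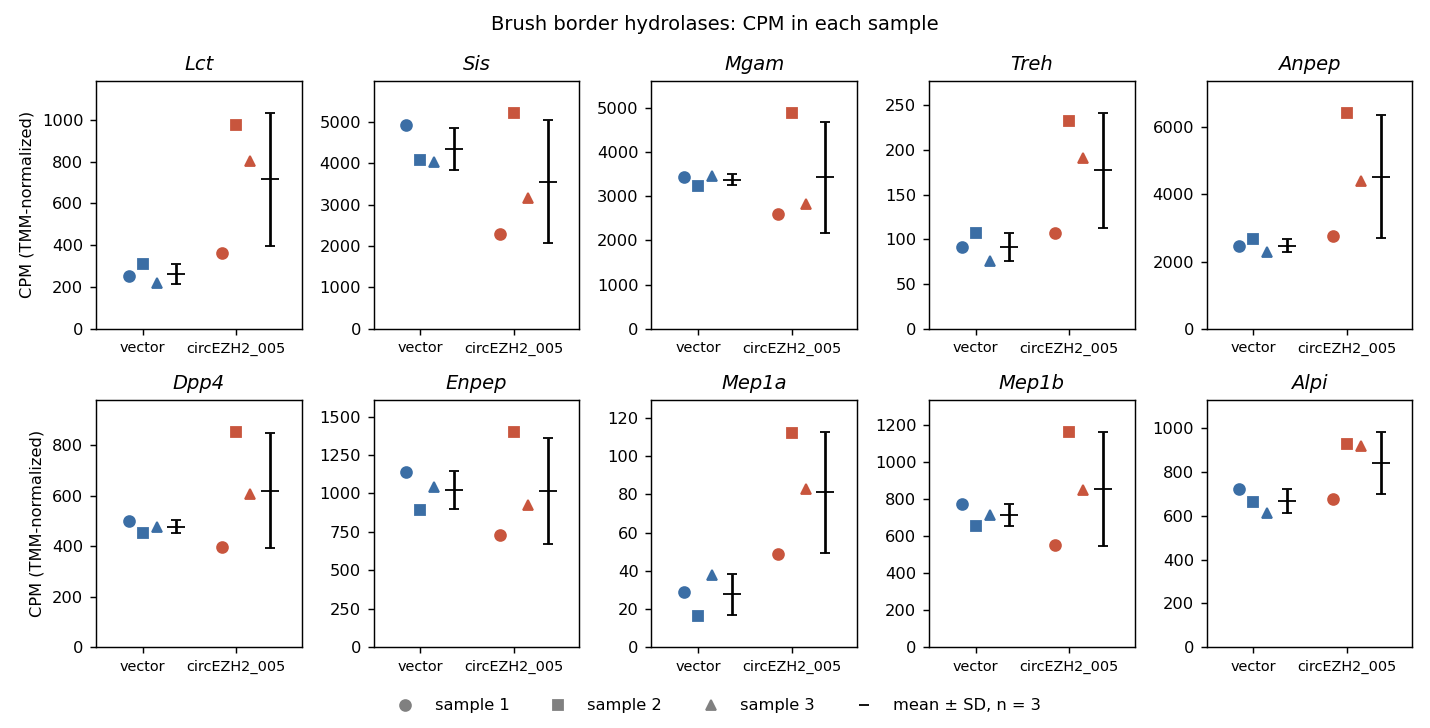
Level of each hydrolase in each of the 6 samples, as TMM-normalized CPM on a linear axis that starts at 0 in every panel. Circles, squares and triangles are samples 1, 2 and 3 of each group and bars give the mean ± SD (n = 3); circEZH2_005 sample 2 is the highest point in all 10 panels, and the groups do not overlap for Lct, Anpep and Mep1a.

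Lct encodes lactase-phlorizin hydrolase, which splits milk sugar, and lies on the minus strand at chr1:128284756-128328318 (GRCm38, GENCODE M21, 17 exons). With vector, samples 1 to 3 held 254.2, 311.4 and 220.3 CPM of Lct, and with circEZH2_005 they held 363.1, 976.5 and 805.5 CPM. The groups did not overlap, although circEZH2_005 sample 1 was much nearer to the vector range than samples 2 and 3. The means were 262 ± 46.0 and 715 ± 317 CPM (SD, n = 3), and the fitted log2 difference was 1.45 (SE 0.33, 95% interval 0.67 to 2.22 before adjustment, edgeR adjusted p = 0.0573).

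Sis encodes sucrase-isomaltase, which splits sucrose and the branch points of starch, and lies on the minus strand at chr3:72888557-72967863 (48 exons). The vector samples had 4917, 4077 and 4039 CPM and the circEZH2_005 samples 2294, 5206 and 3166 CPM. With circEZH2_005, samples 1 and 3 were below the vector range and sample 2 above it, so the groups overlapped. The means were 4344 ± 496 and 3555 ± 1494 CPM, with a log2 fold change of -0.29 (SE 0.27, interval -0.92 to 0.35, edgeR adjusted p = 0.579). Sis was the hydrolase with the lowest fold change.

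**Figure D2:**
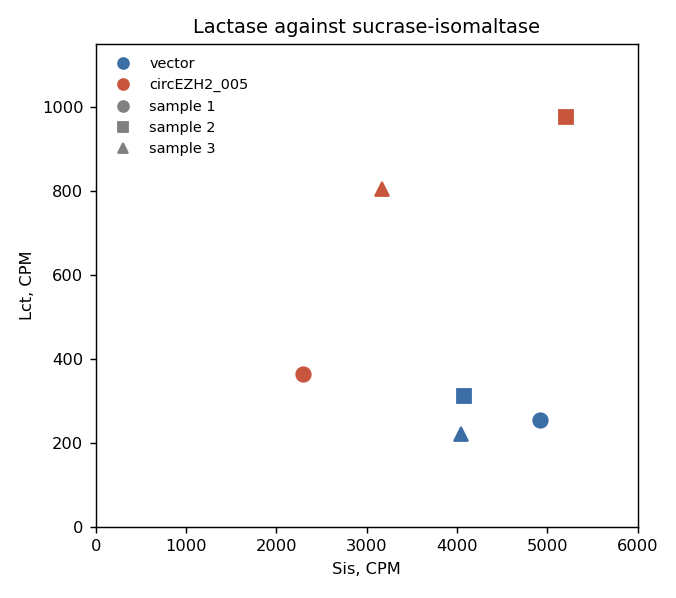
Lct (vertical axis, CPM) against Sis (horizontal axis, CPM), 1 point per sample, with both axes starting at 0. At Sis levels of 4039 to 4917 CPM the vector samples (blue) had Lct between 220.3 and 311.4 CPM, and every circEZH2_005 sample (red) lies above a line drawn from the origin through any vector sample.

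Mgam encodes maltase-glucoamylase, the partner of sucrase-isomaltase in starch digestion, on the plus strand at chr6:40628831-40769123 (48 exons). It had 3433, 3227 and 3445 CPM with vector and 2596, 4873 and 2811 CPM with circEZH2_005. The vector samples lay close together, and the circEZH2_005 samples lay on both sides of them. The log2 fold change was 0.02 (SE 0.23, interval -0.51 to 0.56, edgeR adjusted p = 0.964), and its sign changed with the processing.

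Treh encodes trehalase, which splits the fungal and insect sugar trehalose, on the plus strand at chr9:44673233-44686305 (15 exons), where Phldb1 overlaps it on the other strand. The vector samples had 91.56, 107.4 and 75.39 CPM and the circEZH2_005 samples 107.2, 232.6 and 191.0 CPM. CircEZH2_005 samples 2 and 3 were above every vector sample, and sample 1 was level with vector sample 2. The fitted log2 fold change was 0.95 (SE 0.27, interval 0.33 to 1.58, edgeR adjusted p = 0.0865). Of the 75-base stretches of Treh transcripts, 0.304% were shared with another gene, Gm47238; for the other 9 hydrolases this share was 0%.

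Among the exopeptidases, Anpep encodes aminopeptidase N, which removes amino acids from the N-terminal end of peptides, and lies on the minus strand of chromosome 7 from 79821803 to 79848210 (21 exons), with Gm44974 on the same strand. It had 2478, 2668 and 2277 CPM with vector and 2752, 6414 and 4399 CPM with circEZH2_005. The groups did not overlap, but circEZH2_005 sample 1 exceeded the highest vector sample only narrowly. The log2 fold change was 0.87 (SE 0.27, interval 0.24 to 1.5, edgeR adjusted p = 0.107). Anpep is also made by myeloid cells, whose markers Itgam (13.5 to 25.2 CPM), Lyz2 (4.93 to 17.7 CPM) and Adgre1 (0.318 to 1.14 CPM) were present at low levels in all 6 samples although the sort for Lgr5-GFP before culture would remove such cells; their part in the Anpep level was not tested.

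Dpp4, dipeptidyl peptidase 4, removes dipeptides from the N-terminal end of peptides such as incretin hormones, and lies on the minus strand at chr2:62330073-62412231 (26 exons, with Gm13561 on the other strand). Its CPM was 501.9, 453.0 and 478.2 with vector and 398.5, 853.4 and 607.5 with circEZH2_005. CircEZH2_005 sample 1 was the lowest of all 6 samples and sample 2 the highest. For Dpp4 the log2 fold change was 0.38 (SE 0.24, interval -0.19 to 0.94, edgeR adjusted p = 0.397). Dpp4 is made by T cells as well, which the same sort would remove, and the T-cell gene Cd3e stood at 3.55, 16.5 and 4.41 CPM with vector and 37.6, 32.0 and 21.6 CPM with circEZH2_005, highest in the sample where Dpp4 was lowest; its part in the Dpp4 level was not tested.

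Enpep, aminopeptidase A, removes acidic residues and converts angiotensin II, and lies on the minus strand at chr3:129269175-129332720 (20 exons, with Gm42628 on the other strand). It had 1141, 894.9 and 1040 CPM with vector and 729.0, 1401 and 925.8 CPM with circEZH2_005. The groups overlapped, with the circEZH2_005 samples again on both sides of the vector range. The log2 fold change was -0.01 (SE 0.23, interval -0.54 to 0.52, edgeR adjusted p = 0.986). Enpep is also found on pericytes, whose marker Rgs5 did not exceed 0.39 CPM in any sample. The part of pericytes in the Enpep level was not tested.

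The meprins are zinc endopeptidases built from alpha and beta subunits. Mep1a, the alpha subunit, lies on the minus strand at chr17:43474324-43502812 (14 exons) and had 29.03, 16.49 and 37.96 CPM with vector and 48.69, 112.0 and 82.71 CPM with circEZH2_005. The groups did not overlap, and the vector samples themselves differed more from each other than for any other hydrolase. For Mep1a the log2 fold change was 1.54 (SE 0.37, interval 0.69 to 2.39, edgeR adjusted p = 0.0595).

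Mep1b, the beta subunit, which stays in the membrane, had 774.3, 657.7 and 716.5 CPM with vector and 551.0, 1165 and 849.7 CPM with circEZH2_005. These groups overlapped, with circEZH2_005 sample 1 the lowest of the 6. The log2 fold change was 0.26 (SE 0.24, interval -0.31 to 0.82, edgeR adjusted p = 0.579). Gm6378 overlaps Mep1b on the other strand. Per length, Mep1a was the lower of the subunits in every sample, at 4.473 to 10.19 FPKM with vector and 13.14 to 27.06 FPKM with circEZH2_005, against 234.7 to 268.8 and 195.7 to 370.1 FPKM for Mep1b (FPKM, fragments scaled to transcript length and library total).

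Alpi, intestinal alkaline phosphatase, lies on the minus strand at chr1:87098002-87101606 (11 exons). It had 725.2, 661.8 and 615.1 CPM with vector and 677.3, 929.0 and 919.3 CPM with circEZH2_005. CircEZH2_005 samples 2 and 3 were above every vector sample, and sample 1 was within the vector range. The log2 fold change was 0.34 (SE 0.14, interval 0.01 to 0.66, edgeR adjusted p = 0.199), and Alpi had the smallest spread between samples of a group among the 10, a biological coefficient of variation of 14.3% against 30.8% for Mep1a, the largest, and a median of 19.5% over all genes. The related phosphatase Akp3 had 143.2, 269.4 and 169.8 CPM with vector and 372.0, 233.7 and 359.4 CPM with circEZH2_005 (log2 fold change 0.73, SE 0.26, edgeR adjusted p = 0.148), and unlike every hydrolase of the group it was lower in circEZH2_005 sample 2 than in samples 1 and 3.

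**Figure D3:**
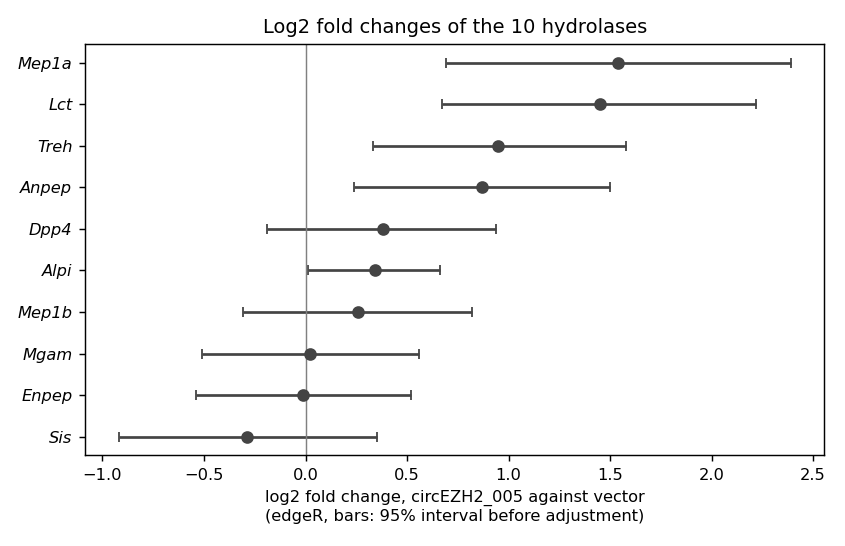
Log2 fold change of each hydrolase, circEZH2_005 against vector, from edgeR, with bars for the 95% interval before adjustment. The intervals of Mep1a, Lct, Treh, Anpep and Alpi lie above 0 and those of the other 5 genes include 0; no gene passed the adjusted threshold.

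In the vector samples the order of the mean levels per length was Anpep (554 ± 47.6 FPKM), Sis (538 ± 54.2), Alpi (264 ± 19.4), Mgam (258 ± 7.09), Mep1b (252 ± 17.0), Enpep (201 ± 21.6), Dpp4 (69.9 ± 2.61), Treh (41.3 ± 7.53), Lct (37.9 ± 6.99) and Mep1a (7.44 ± 2.86; SD, n = 3 for each). The sample values of Anpep and Sis overlapped, as did those of Alpi with Mgam, Mgam with Mep1b, and Treh with Lct, and the other neighbours in this order were apart. With circEZH2_005, Anpep stood alone at the top (939 ± 338 FPKM), above Sis (409 ± 154), and Lct (95.5 ± 38.4) took a place between Enpep (186 ± 54.6) and Dpp4 (84.3 ± 27.0). Its values overlapped with those of Dpp4 and were apart from those of Enpep. Mep1a was the lowest in both groups (20.2 ± 6.96 FPKM with circEZH2_005). The 10 genes together took 1.45%, 1.35% and 1.32% of all counts with vector and 1.10%, 2.06% and 1.42% with circEZH2_005, so the summed share overlapped between groups.

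The circEZH2_005 samples kept 1 order for the whole group: sample 2 was above sample 3 and sample 3 above sample 1 for 10 of 10 hydrolases, an order found in 20.7% of all genes tested. Sample 2 was the highest of all 6 samples for 10 of 10 (22.9% of all genes), and sample 1 was the lowest of all 6 for 5 of 10, Sis, Mgam, Dpp4, Enpep and Mep1b (16.5% of all genes). The CPM of sample 2 was 1.37 times that of sample 1 for Alpi, 1.88 times for Mgam and 2.69 times for Lct, the highest ratio, while the median ratio over all genes was 0.982. Without sample 1, Lct, Treh, Anpep and Mep1a had adjusted p-values under 0.05.

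Counted as groups that do not overlap, 3 of 10 hydrolases were higher with circEZH2_005 (Lct, Anpep and Mep1a) and 0 of 10 lower, against 16.4% and 14.2% of all genes. Vil1, villin, which bundles the actin filaments of the microvillus, was used to set each hydrolase against the amount of brush border RNA in the same sample. Vil1 had 1857, 1695 and 1708 CPM with vector and 1905, 3329 and 2562 CPM with circEZH2_005 (log2 fold change 0.57, SE 0.19, edgeR adjusted p = 0.124). Vil1 was thus itself higher in every circEZH2_005 sample than in any vector sample, which lowers every ratio to it. In bulk RNA, fewer cells of a type and less RNA per cell cannot be told apart, and the same holds for these ratios.

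Relative to Vil1, Lct and Mep1a were higher with circEZH2_005 in every sample, and 6 hydrolases were lower in every sample. The ratio Lct/Vil1 was 0.137, 0.184 and 0.129 with vector and 0.191, 0.293 and 0.314 with circEZH2_005, a log2 difference of 0.81. Mep1a/Vil1 differed by 1.01 on the log2 scale. These 2 of 10 compare with 2.87% of all genes whose ratio to Vil1 was higher without overlap. Sis/Vil1 was 2.65, 2.4 and 2.36 with vector and 1.2, 1.56 and 1.24 with circEZH2_005, a log2 difference of -0.90. The differences of Enpep (-0.59), Mgam (-0.57), Mep1b (-0.34), Dpp4 (-0.22) and Alpi (-0.21) were also without overlap, that of Alpi by the narrowest margin (0.36 in vector sample 3, 0.359 in circEZH2_005 sample 3). These 6 of 10 compare with 40.2% of all genes, whose median log2 difference relative to Vil1 was -0.54. Mep1b, Dpp4 and Alpi fell less than this median. Each of these 8 ratios had an exact two-sided permutation p of 0.1, the smallest that 3 samples against 3 allow. Treh (0.36) and Anpep (0.26) overlapped between groups relative to Vil1 (exact permutation p = 0.2 each). The count of higher ratios depended on the gene chosen as reference: it was 1 with Cdhr5 and 0 with Ezr, while the count of lower ratios was 5 and 6.

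**Figure D4:**
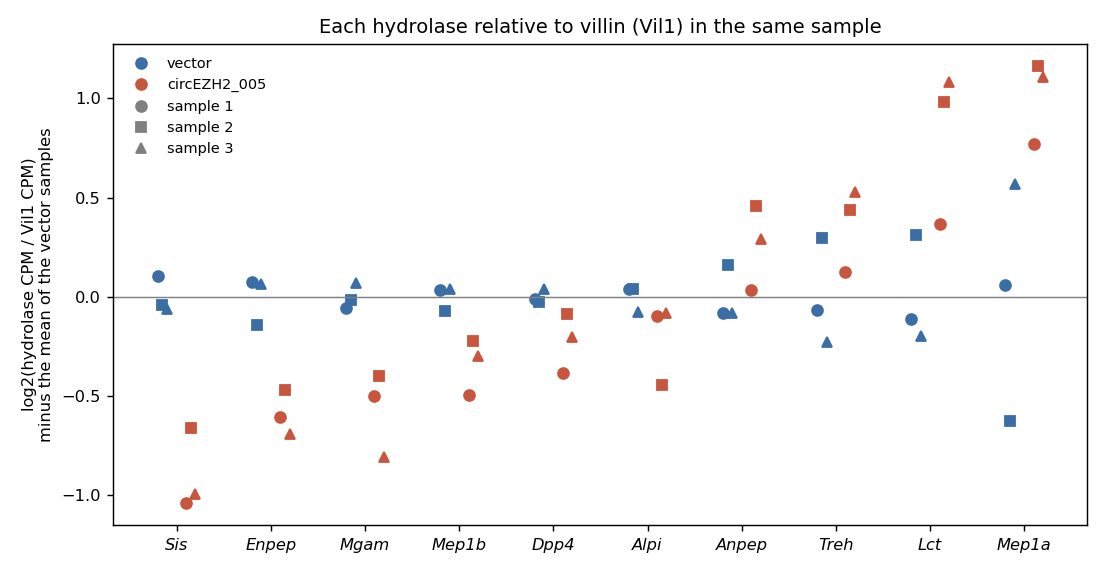
Ratio of each hydrolase to Vil1 in the same sample on the log2 scale, minus the mean of the vector samples, with genes ordered by the difference between groups. All circEZH2_005 points (red) lie below the vector points (blue) for Sis, Enpep, Mgam, Mep1b, Dpp4 and Alpi and above them for Lct and Mep1a.

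The balance among the hydrolases was measured with Sis as the reference, a choice made after the values were seen. Lct/Sis was 0.0517, 0.0764 and 0.0546 with vector and 0.158, 0.188 and 0.254 with circEZH2_005, a log2 difference of 1.71 (3.27-fold). Anpep/Sis was 0.504, 0.654 and 0.564 with vector and 1.2, 1.23 and 1.39 with circEZH2_005. Per length, Anpep was above Sis in vector samples 2 and 3 and in all 3 circEZH2_005 samples, and below it in vector sample 1 (546.1 against 600.2 FPKM). Mep1a/Sis had the largest log2 difference (1.91) and Enpep/Sis the smallest (0.31). All 9 ratios to Sis were higher without overlap and 0 were lower, against 15.9% and 0.723% of all genes, whose median log2 difference relative to Sis was 0.36. Since Sis was picked as the hydrolase with the lowest fold change, that choice set the direction of all 9 mean differences. The count of 9 and the shares of all genes beside it are therefore a description.

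Other genes of the brush border and of the uptake of digestion products were counted in lists drawn from general knowledge of the tissue. Of all genes tested, 2.69% were called higher and 0.986% lower, and these shares stand beside the count of each list below. Of 15 other apical or secreted hydrolases, 14 were tested (Folh1 was not), and 4 rose and 0 fell (median log2 fold change 0.91). Enpp7, alkaline sphingomyelinase, rose from 88.2 ± 15.8 to 359 ± 194 CPM (SD, n = 3; log2 fold change 2.03, SE 0.40, edgeR adjusted p = 0.0433). Xpnpep2, the membrane-bound aminopeptidase P, rose by 1.89 (adjusted p = 0.032), Enpp3, a nucleotide pyrophosphatase, by 1.52 (adjusted p = 0.0207) and Nt5e, the 5'-nucleotidase CD73, by 1.25 (adjusted p = 0.0487) on the log2 scale in edgeR.

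Relatives of the hydrolases that work in lysosomes, the endoplasmic reticulum, the cytosol or other tissues, such as Gaa and Ganab (alpha-glucosidases) and Dpp8 and Dpp9, served as a contrast. Of 11, 10 were tested (Lctl was not), 0 rose and 0 fell in edgeR, the median log2 fold change was -0.01, and circEZH2_005 sample 2 was the highest of the 6 samples in 1 of them. Among 14 structural brush border genes 1 rose, Espn, espin (log2 fold change 1.07, edgeR adjusted p = 0.0496), and 0 fell. Their median was 0.54, and sample 2 was the highest in 14 of 14. Of 11 carriers of sugars, peptides and amino acids, 1 rose, the neutral amino acid carrier Slc6a19 (1.58, edgeR adjusted p = 0.0426), and 0 fell (median 0.25). Slc15a1, the di- and tripeptide carrier, had a log2 fold change of 1.08 (adjusted p = 0.0833) and Slc5a1, the glucose carrier SGLT1, of 0.15 (adjusted p = 0.782).

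**Figure D5:**
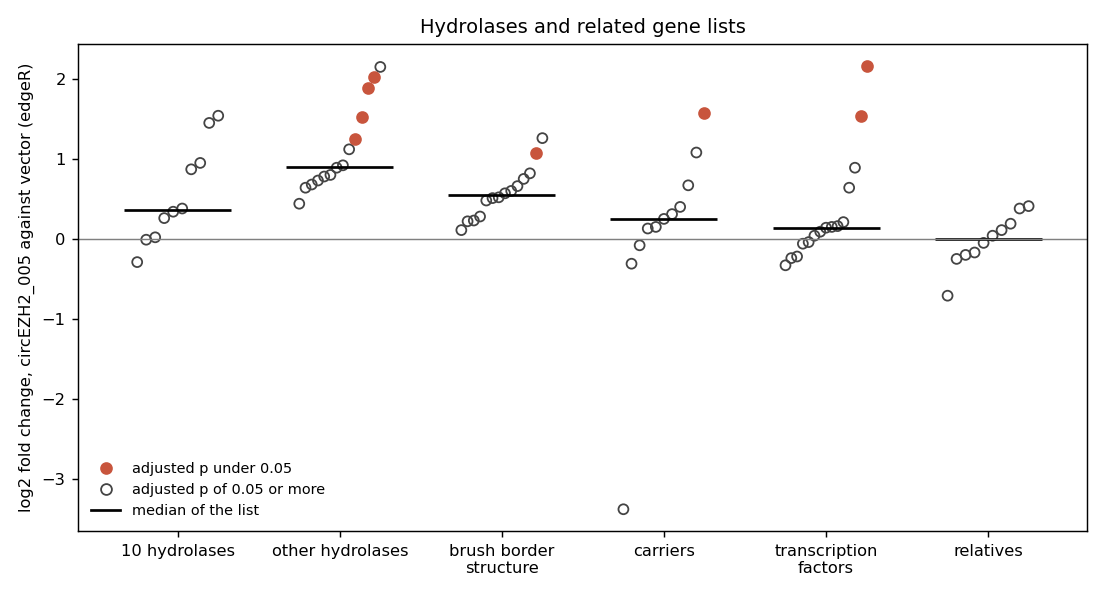
Log2 fold change (circEZH2_005 against vector, edgeR) of every tested gene in the 10 hydrolases and 5 related lists, with filled points for an adjusted p under 0.05 and lines for the list medians. Medians are 0.36 for the 10 hydrolases, 0.91 for other hydrolases, 0.54 for brush border structure, 0.25 for carriers, 0.14 for transcription factors and -0.01 for relatives; the lowest point among the carriers is Cltrn, which had at most 41 counts in a sample.

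Of 15 transcription factors known to act on brush border genes, 2 rose and 0 fell in edgeR, against 2.69% and 0.986% of all genes. Their median log2 fold change was 0.14. Prdm1, the repressor BLIMP1, which holds the intestine in its suckling state, rose from 5.58 ± 1.69 to 24.9 ± 5.41 CPM (SD, n = 3; log2 fold change 2.16, SE 0.25, edgeR adjusted p = 0.013). Klf4, a factor of differentiated epithelial cells, rose from 57.7 ± 6.23 to 168 ± 43.4 CPM (1.54, SE 0.18, edgeR adjusted p = 0.0138). Prdm1 was 4.54, 7.54 and 4.66 CPM in vector samples 1 to 3. It was 25.2, 30.2 and 19.4 CPM in circEZH2_005 samples 1 to 3, with sample 3 the lowest of the 3. The leukocyte markers described below summed to 86.86, 237.8 and 109.6 CPM with vector and 539.0, 420.8 and 315.2 CPM with circEZH2_005. Their part in the Prdm1 level was not tested. Klf4 was 136, 218 and 151 CPM, with sample 1 the lowest and sample 2 the highest, as for the hydrolases. Cdx2 (0.15, edgeR adjusted p = 0.421) and Hnf4a (0.21, adjusted p = 0.171), whose words were searched in the promoters above, had small log2 fold changes that did not pass.

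Markers of cell types were counted in the same way, against 2.69% of all genes called higher and 0.986% called lower. Of 9 enterocyte markers, 3 rose (Cyp3a11, Krt20 and Apoa4) and 0 fell (median log2 fold change 0.86), with summed levels of 11775 to 13616 CPM with vector and 13711 to 23161 CPM with circEZH2_005. Of 7 stem cell markers, 0 rose and 2 fell in edgeR, Lgr5 by 0.88 (adjusted p = 0.0434) and Smoc2 by 0.81 on the log2 scale (adjusted p = 0.0203), and the summed levels were 2034 to 2883 and 1390 to 2022 CPM. Most of this sum was Olfm4 (1758 ± 483 and 1317 ± 287 CPM, SD, n = 3; log2 fold change -0.42, edgeR adjusted p = 0.314), and Axin2 (0.31, adjusted p = 0.219) and Rnf43 (0.32, adjusted p = 0.222) had log2 fold changes of the opposite sign. The 10 leukocyte markers summed to 86.86, 237.8 and 109.6 CPM with vector and 539.0, 420.8 and 315.2 CPM with circEZH2_005 (0 called, median 1.49), highest in the sample whose hydrolases were lowest in its group. The sort for Lgr5-GFP before culture would remove leukocytes, and the labels do not say whether these cultures were the sorted ones. Fibroblast and endothelial markers summed to between 5.4 and 16.21 CPM, with 1 of 8 tested called (Pecam1, higher). Pecam1 was 5.22, 3.44 and 2.55 CPM in circEZH2_005 samples 1 to 3, the same order as the leukocyte sums. Cdh5, of the same list, had at most 18 counts in a sample and was not tested. Which cells made the Pecam1 RNA was not tested. No list had a marker at 0 in all samples. Of the Paneth (6), enteroendocrine (6) and tuft (4) markers 0 were called, and of 6 goblet markers 1 rose (Clca1). All Paneth markers had negative log2 fold changes, from -0.92 to -0.51 (median -0.59). Those of the enteroendocrine markers ran from -0.26 to 0.66 and those of the tuft markers from -0.14 to 0.02. The goblet markers ran from -0.33 (Agr2) to 0.76 (Clca1), with a median of 0.14. The part of these cell types in the hydrolase values was not tested.

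The mean profile of the 10 hydrolases, as z-scores of log2 CPM, took the values -0.18, -0.60 and -0.54 with vector and -0.96, 1.78 and 0.49 with circEZH2_005 (samples 1, 2 and 3 of each). The 5 other genes closest to it were Ogdh (Pearson r = 0.9963), Txndc17 (0.9958), Epb41l3 (0.9955), Plekhm2 (0.9951) and Stx7 (0.9938), over 6 samples that share their libraries and without a test. Of 18338 other genes, 196 (1.07%) had r over 0.95.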

How the data were processed

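RNA sequencing of 6 samples was analysed, grouped by the sample labels. The authors deposited, per gene and sample, a raw read count without normalization and an FPKM value. The submitters' processing notes list cutadapt 1.9, HISAT2 2.0.4, StringTie 1.3.4d, DESeq2 and the mm10 build, with no role given; the annotation, the handling of strand and any filter are not given in the sources used here, so reads of overlapping genes on the other strand may be included. Control columns are named NC and were taken as vector, the only control group; 0 columns of sample values were unused. Of 28752 gene IDs, 28678 were found in GENCODE M21 (GRCm38).

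Counts were filtered with filterByExpr, scaled with TMM and compared in edgeR 4.0.16 (R 4.3.3; quasi-likelihood F test), with Benjamini-Hochberg adjustment over 18348 genes; CPM is TMM-normalized. The paper's text names no test for these data. FPKM was used to compare levels between genes. Alternatives used RLE and upper-quartile scaling, no filter, DESeq2 1.42.0, limma 3.58.1 on log2(FPKM + 1) or log2(FPKM + 0.1) (mean FPKM 0.5 or more), a replicate block and leaving out each sample. Ratios were compared with an exact two-sided permutation test. The sample numbers were not found to pair the samples. Floors cover counting error only.

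The 10 genes and all lists were chosen with earlier results of these data known. Of each list, the called genes (at most 3 in each direction by log2 fold change) and Akp3, Vil1, Slc5a1, Slc15a1, Prdm1, Cdx2 and Hnf4a were to be named (1 further gene of this rule is not reported here); others are named with markers or contrasts after their values were seen. Likeness was taken on log2(CPM + 0.01). On simulated counts in which 200 genes differed 1.5 log2 units between groups, edgeR recovered 114 (57.0%) and 8.8% of its calls were false (17715 genes tested), and DESeq2 recovered 67.0% and 33.7% of its calls were false (18340 genes tested).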

Additional observations from a re-analysis of the deposited data

How the results depend on the processing

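For the 10 hydrolases, 0 called higher became 4 with DESeq2, and 0 to 4 when each sample was left out (4 without circEZH2_005 sample 1: Lct, Treh, Anpep and Mep1a); 0 were called lower in all 13 alternatives, and the replicate block called 0 higher. Over all genes, 493 called higher became 132 with no filter, 1588 with DESeq2, 310 with limma on log2(FPKM + 1), 168 with log2(FPKM + 0.1), 241 with the replicate block, and 26 to 1098 when each sample was left out (26 without vector sample 1, 31 without vector 3, 1098 without vector 2, 62 without circEZH2_005 2 and 136 without circEZH2_005 3). The 181 called lower became 37 with no filter, 701 with DESeq2, 292 with log2(FPKM + 1), 36 with the replicate block, and 2 to 334 when each sample was left out (2 without vector sample 1 or 3, 334 without vector 2, 6 without circEZH2_005 2 and 33 without circEZH2_005 3). Deviations from the group means of equally numbered samples correlated at -0.14, -0.02 and 0.04 (numbers 1, 2 and 3). These correlations gave no sign of pairing by number, but they cannot show whether the cultures were made in pairs. The 2 ratios to Vil1 that were higher without overlap became 1 with Cdhr5, 0 with Ezr and 2 to 4 when each sample was left out (4 without vector 2 and without circEZH2_005 1). The count of 9 ratios to Sis, a reference chosen after seeing the data that set their direction, stayed 9 without each sample.

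The sign of the log2 fold change turned for 3 hydrolases, none of them called: Mgam with upper-quartile scaling (-0.02), limma with either pseudocount (-0.12), the replicate block (-0.04), and when samples were left out (-0.32 to 0.19; 0 after rounding without vector 2 and -0.32 without circEZH2_005 2); Enpep (-0.31 to 0.18 when samples were left out) without vector 1 (0.07), circEZH2_005 1 (0.18) or circEZH2_005 3 (0.05); and Mep1b (-0.03 to 0.49 when samples were left out) without circEZH2_005 2 (-0.03). Lct ranged from 1.16 to 1.76, Mep1a from 1.24 to 1.83, Treh from 0.70 to 1.21, Anpep from 0.53 to 1.13 and Sis from -0.67 to -0.05 over 13 alternatives. The cause of these differences was not tested. Of the other genes called, Espn had an adjusted p under 0.05 in 3 of 13 alternatives, Nt5e in 2, Lgr5 and Clca1 in 4, Enpp7 and Slc6a19 in 5, Xpnpep2 in 6, Apoa4 in 7, Enpp3 and Smoc2 in 9, Prdm1 in 10, Klf4 and Krt20 in 11 and Cyp3a11 in 13; Pecam1 had one in 4 of the 11 that gave it a value.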
